A study of Mus musculus with 19 samples.

Results

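The genotype comparison described here set all 10 CnB1KO libraries against all 9 WT libraries of mouse locus coeruleus, with sleep state held as a factor. It used all 19 of the 19 samples of the series and every one of the 14443 genes with counts. Locus coeruleus is the small brainstem nucleus whose noradrenergic neurons promote waking. The WT groups came from ABC-Ctrl mice, 4 that slept (WT_S6) and 5 that were sleep-deprived for 6 h (WT_SD6). The CnB1KO groups came from ABC-CnB1KO mice, 5 that slept (CnB1KO_S6) and 5 deprived for 6 h (CnB1KO_SD6). Per the labels' protocol the brains were collected 4 weeks after injection of AAV-hSyn-Cre, a virus that expresses Cre recombinase from a neuronal promoter, and the protocol words this alike for both genotypes. The sources used here do not give the age of the mice, the meaning of ABC or whether both genotypes share a genetic background.

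Calcineurin is a phosphatase switched on by calcium and calmodulin. It consists of a catalytic A subunit (genes Ppp3ca, Ppp3cb and Ppp3cc) and the regulatory B subunit CnB1, made from Ppp3r1, without which the enzyme is not active. Among its known substrates are the NFAT transcription factors, which enter the nucleus once dephosphorylated, and in neurons it acts on ion channels, receptors and other proteins of the synapse.

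Library totals lay between 3887298 and 7903253 counts, the lowest in CnB1KO_S6 library 13. Levels are given as CPM, read counts relative to the TMM-scaled library total, and differences as log2 fold changes of CnB1KO against WT. A gene was called where edgeR's quasi-likelihood test gave an adjusted p (Benjamini-Hochberg, over the whole table) under 0.05. All libraries came from male tissue by their RNA, with 120 to 145 CPM of the Y-linked gene Ddx3y and at most 0.0387 FPKM, which relates fragments to transcript length and depth, of Xist. The defining genes of noradrenergic neurons were present in every library: Dbh, which makes noradrenaline, at 111 to 285 CPM and the noradrenaline transporter gene Slc6a2 at 189 to 550. The cerebellum borders the dissected area, and Gabra6, a receptor subunit of cerebellar granule cells, ran from 0.597 to 187 CPM over the libraries. The tissue was bulk, so that fewer cells of a type and less RNA per cell cannot be told apart in any of the results.

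Ppp3r1, the targeted gene (chromosome 11, 17159263 to 17200375, plus strand, GRCm38), was lower in CnB1KO. The 4 WT_S6 libraries had 162, 163, 155 and 164 CPM and the 5 WT_SD6 libraries 159, 150, 151, 165 and 136. In CnB1KO_S6 the values were 127, 125, 152, 121 and 120 and in CnB1KO_SD6 141, 123, 131, 130 and 137. In 7 of the 10 CnB1KO libraries the level was below that of every WT library, while library 13 of CnB1KO_S6, at 152, lay within the WT range. The log2 fold change was -0.26 (SE 0.0454), 1.19-fold lower, with an adjusted p of 0.00766. With the log2 library total as covariate it was -0.31 (adjusted p = 1.45e-05). The call held without any 1 library (highest adjusted p = 0.0238) but not with the marker score of endothelium (adjusted p = 0.249) or of mature oligodendrocytes (adjusted p = 0.122) as covariate.

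The 250 bases before the RefSeq start of Ppp3r1 (chr11:17159048-17159297, plus strand, GRCm38.p6) are shown as the sequence in front of the targeted gene. Capitals mark matches, on either strand, to 3 short motifs. These were TGGAAA, the core bound by NFAT factors, AGGAAG, a core bound by ETS factors, and TGACGTCA, the full cyclic AMP response element.
Ppp3r1: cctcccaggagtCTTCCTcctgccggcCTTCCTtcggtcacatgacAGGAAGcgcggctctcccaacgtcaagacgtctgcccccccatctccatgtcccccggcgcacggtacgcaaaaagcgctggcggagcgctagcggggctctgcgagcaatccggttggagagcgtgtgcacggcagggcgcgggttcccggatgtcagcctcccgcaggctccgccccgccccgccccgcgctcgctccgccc
The window held 3 matches to the ETS core and 0 to the other motifs. In the same window TGGAAA was found for 14.6% of the 11044 tested genes with a listed promoter. Among called genes it was found for 11.7% of 290 higher and 10.9% of 175 lower ones. The full response element was found for 2.77% of all promoters, 2.07% of those of higher and 0.571% of those of lower genes.

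The other genes of calcineurin and its regulators did not pass. Of 15 measured members of the list 0 were called higher and 1, Ppp3r1, lower, with a median log2 fold change of 0.02 (0.01 over all genes). The catalytic subunit genes Ppp3ca, Ppp3cb and Ppp3cc had -0.06, 0.02 and -0.01. Their mean levels per length in WT were 61.9, 64.3 and 13.1 FPKM, beside 60.9 for Ppp3r1. Rcan1, an inhibitor of calcineurin that is itself a known NFAT target, had 56.8 to 72.1 CPM in WT (median 67) and 67.2 to 79.2 in CnB1KO (median 73.7). It was above every WT library in 6 of 10 CnB1KO libraries, with a log2 fold change of 0.15 (adjusted p = 0.0563). Its call was made in 5 of 44 alternative analyses.

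CnB1KO and WT differed in many genes by small amounts. In all 618 of 14443 genes were called (4.28%), 378 higher in CnB1KO (2.62%) and 240 lower (1.66%). The difference was under 1.1-fold in 71 of them, 1.1 to 1.2-fold in 317 (51.3%), 1.2 to 1.5-fold in 201, 1.5 to 2-fold in 23 and over 2-fold in 6. The median size was 1.17-fold among called genes and 1.06-fold among all genes. The call was most frequent in the third quartile of genes by level (6.07%) and least in the lowest (2.46%). Genes at the edge of the call were Gm2a and Qdpr, just inside with log2 fold changes of 0.15 and 0.21, and Snph and E430024I08Rik, just outside with 0.14 and 0.17.

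How far the libraries of the genotypes lay apart was counted without the fit. In 52 genes (0.36% of all) the genotypes did not overlap in either sleep state and differed in the same direction, and 51 of these were among the 618. In 22 genes (0.152%) all 10 CnB1KO libraries lay on 1 side of all 9 WT libraries, 11 higher and 11 lower, all of them called. They include Crb1, Aim2, Stc2, Espn and Zfp78, which were lower, and Wdfy1, Arc, Cdh22 and Cacna2d3, which were higher.

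**Figure D1:**
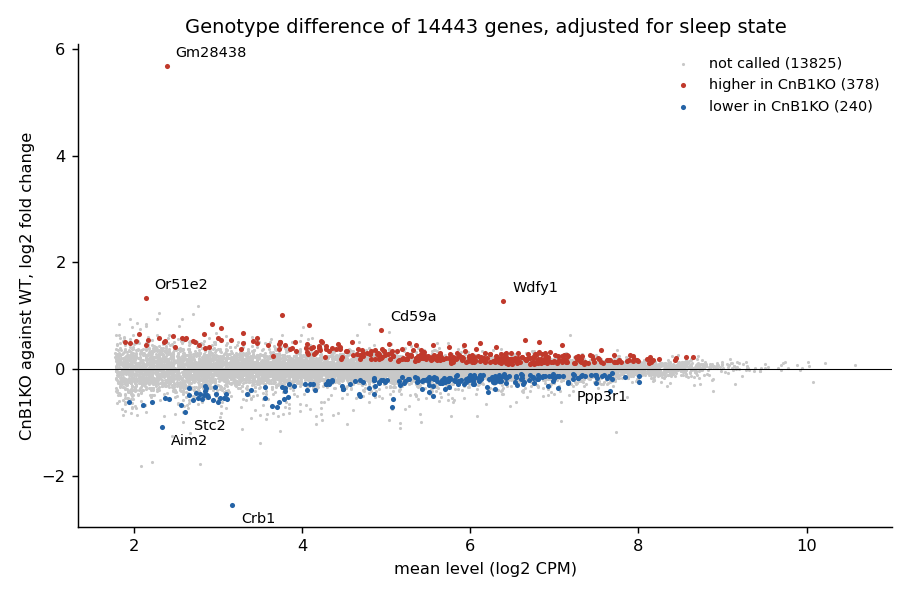
Each point is 1 of 14443 genes, with the mean level (log2 CPM) on the horizontal axis and the log2 fold change of CnB1KO against WT on the vertical axis. Red and blue points are the 378 higher and 240 lower called genes, most of which lie close to 0, while Crb1, Wdfy1 and Gm28438 lie far from it.

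The count of calls depended on single libraries and on the covariates of the fit. It was 123 without WT_S6 library 4 and 1099 without CnB1KO_SD6 library 16. Libraries whose absence also moved it by over 1.5 times were WT_S6 3 (389), WT_SD6 7 (261), WT_SD6 9 (299), CnB1KO_S6 12 (275), 13 (384), 14 (1032) and 15 (273), and CnB1KO_SD6 17 (324), 18 (330) and 19 (281). Of the 618 genes 120 (72 higher, 48 lower) were called without any 1 library. None of the 618 changed direction when 1 library was left out.

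Crb1, which encodes a membrane protein of the Crumbs complex that sets the polarity of epithelial and glial cells, had the largest fall. It lies on chromosome 1 (139197056 to 139377100, minus strand). WT_S6 libraries had 19.9, 16.5, 15.2 and 13.4 CPM and WT_SD6 libraries 14.6, 17.7, 7.16, 13.1 and 18.2. CnB1KO_S6 libraries had 2.02, 2.72, 2.46, 2.9 and 2.03 CPM and CnB1KO_SD6 libraries 2.29, 3.01, 1.74, 3.37 and 3.19. The genotypes were far apart in both sleep states, 5.87-fold lower in CnB1KO (log2 fold change -2.55, SE 0.169, adjusted p = 1.65e-08). Crb1 was called in each of the 44 alternatives.

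Wdfy1, which encodes an endosomal protein of toll-like receptor signalling, also lies on chromosome 1 (79702262 to 79776143, minus strand) and was 2.42-fold higher in CnB1KO (log2 fold change 1.28, SE 0.112, adjusted p = 1.72e-06). WT_S6 libraries had 44, 42.1, 43.8 and 43.7 CPM. WT_SD6 libraries had 42.2, 47.5, 40.2 and 40.7, except library 10 at 88.2. All 10 CnB1KO libraries lay between 112 and 125. Library 10 of WT_SD6 thus stood between the other WT libraries and CnB1KO, and Crb1 in it was 18.2 CPM, within the WT range.

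Gabra2, which encodes a GABA-A receptor subunit, was 1.46-fold higher (chromosome 5, log2 fold change 0.54, SE 0.0891, adjusted p = 0.00434). WT libraries ran from 69.5 to 92.8 CPM with a median of 82.4. CnB1KO_S6 libraries had 120, 143, 130, 86.6 and 77.4 CPM and CnB1KO_SD6 libraries 114, 126, 130, 120 and 127. Libraries 14 and 15 of CnB1KO_S6 lay within the WT range, and the other 8 above it. Wdfy1 and Gabra2 were the 2 called genes of 7 measured on a list of genes known to differ in expression between inbred mouse strains (28.6%, against 4.28% of all genes), whose median was 0.03. Whether strain differences accompany the genotypes was not tested.

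Aim2, Stc2 and Cd59a were among the other large differences. Aim2, a sensor of cytosolic DNA, had 4.38 to 8.8 CPM in WT and 1.47 to 4.37 in CnB1KO (median 3.27). The groups did not overlap, and it was 2.12-fold lower (adjusted p = 0.000875). Stc2, which encodes the secreted glycoprotein stanniocalcin 2, had 5.55 to 10.7 CPM in WT (median 6.8) and 3.44 to 5.39 in CnB1KO (median 4.04), 1.76-fold lower (adjusted p = 0.00238). Its log2 fold change was -0.51 in S6 and -1.08 in SD6. Cd59a, whose protein blocks the membrane attack complex of complement, had 17.6 to 30.4 CPM in WT (median 22.4) and 26.6 to 46.1 in CnB1KO (median 39.7). It was 1.67-fold higher (adjusted p = 0.00325), above every WT library in 9 of 10.

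**Figure D2:**
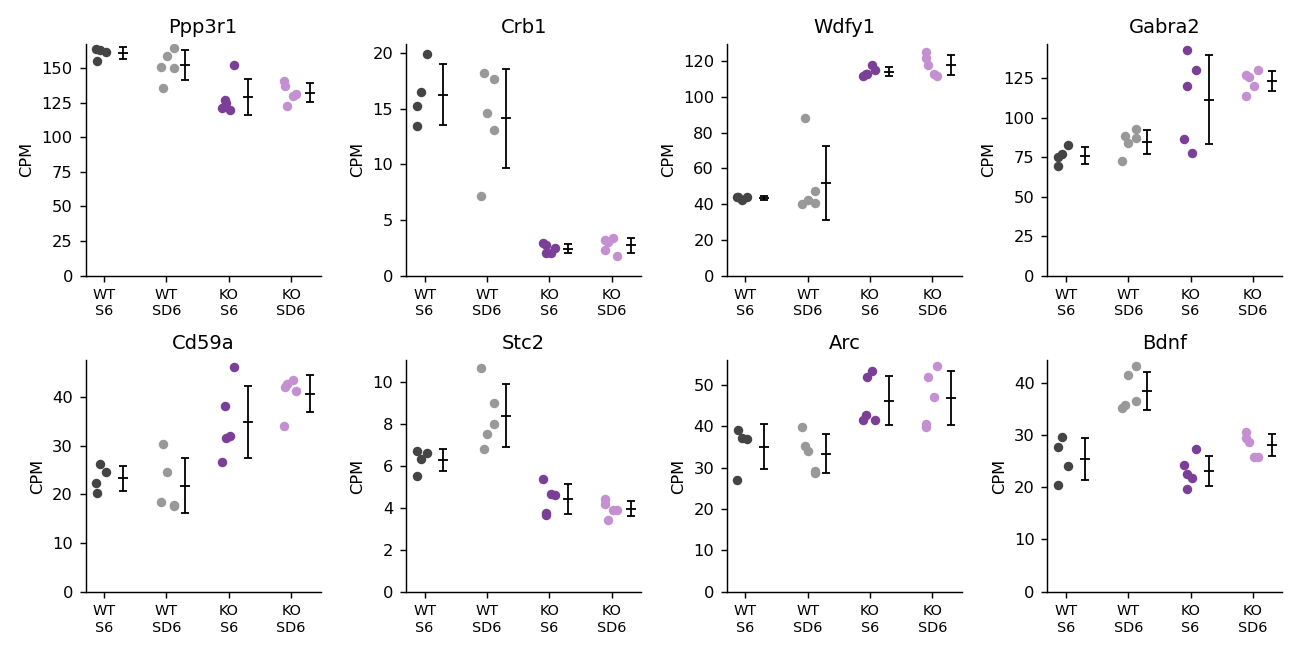
CPM of 8 genes in each library by genotype and sleep state (KO is CnB1KO), with the mean and SD of each group beside its points. Crb1, Wdfy1, Stc2 and Arc do not overlap between genotypes. Wdfy1 has 1 WT_SD6 library at 88.2, nearer to CnB1KO than the other WT libraries, and Gabra2 has 2 CnB1KO_S6 libraries at the WT level.

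Other large rises were in genes of low level. Or51e2, an olfactory receptor gene, had 0.286 to 4.17 CPM in WT and 2.94 to 9.96 in CnB1KO, 2.53-fold higher (adjusted p = 0.0249). Fblim1 (filamin-binding), Colq (the collagen tail of acetylcholinesterase), Mecom (a transcription factor), Pik3r5 (a regulatory subunit of PI3-kinase gamma), Slc45a3 and Septin1 rose by 1.54 to 1.81-fold. Gvin-ps7, a pseudogene of a family of near-identical interferon-inducible GTPases, rose 1.51-fold, and the placement of its reads is uncertain. Of these Pik3r5 was called without any 1 library. The calls of Or51e2, Fblim1, Colq, Mecom, Slc45a3, Septin1 and Gvin-ps7 ended without WT_S6 library 4 (adjusted p = 0.0531 to 0.0851), that of Or51e2 also without CnB1KO_SD6 19, that of Mecom without WT_SD6 7 or CnB1KO_SD6 18, and that of Slc45a3 held without 10 of 19 libraries.

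Among other large falls were Aloxe3, a lipoxygenase gene, at 11.3 to 18.2 CPM in WT and 6.51 to 13.6 in CnB1KO (1.62-fold lower, adjusted p = 0.00846), and Fndc9 (1.65-fold). Espn, which encodes an actin-bundling protein, had 13.7 to 20.2 CPM in WT and 7.67 to 13.6 in CnB1KO, and Zfp78, a zinc finger gene, 7.25 to 10.7 and 4.37 to 6.75. Neither overlapped between genotypes, and they were 1.53 and 1.51-fold lower. Hfm1, a meiotic helicase gene, was 1.51-fold lower, Slc16a11, of the monocarboxylate transporter family, 1.64-fold and Smpx 1.6-fold. The calls of Slc16a11 and Smpx ended without WT_S6 library 4 (adjusted p = 0.0842 and 0.0858), and held without 9 and 7 of the 19 libraries.

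The 5 further genes with the smallest p had small differences and little spread. Snapc1, a subunit of the complex that activates small nuclear RNA genes, had 99.7 to 117 CPM in WT and 83.8 to 98.7 in CnB1KO (log2 fold change -0.24, adjusted p = 0.000156). Cdh22, a cadherin gene, had 84.9 to 93.3 and 96.3 to 114 (0.23, adjusted p = 0.00043). Ube2f, which conjugates the ubiquitin-like protein NEDD8, had 68.6 to 79.6 and 57.5 to 68.2 (-0.23, adjusted p = 0.00178). The genotypes did not overlap in these, nor in Sh3bp5l (0.17) and the spliceosome core gene Snrpd3 (-0.24), both with an adjusted p of 0.00325.

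Gm28438 is given because its values stood out, and was chosen after they were seen. It is annotated as an unprocessed pseudogene of 345 bases on chromosome 1 (24612775 to 24613119). Its counts were 0 to 3 per library in WT, 10 in all, and 42 to 78 in CnB1KO, 584 in all. In the deposited FPKM the genotypes overlapped, at 1100 to 1490 in WT and 906 to 1670 in CnB1KO. Both kinds of value describe the same groups, the sources used here do not give a reason for this, and the difference in counts is uncertain.

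The cell types of the called genes were read from lists of markers for 21 cell types. Of 270 measured markers 26 were called higher in CnB1KO and 0 lower. They were in lists of vessel and glial cells, with 1 exception among the noradrenergic markers. The other 592 called genes are on none of these lists.

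Endothelial cells, which line the vessels and form the blood-brain barrier, held the most. Of 20 measured markers 10 were called higher (50%, against 2.62% of all genes), 0 lower, and the log2 fold change of all 20 was above 0, with a median of 0.27. Flt1 and Kdr, the receptors of VEGF, were higher by 1.28 and 1.4-fold, the tight junction gene Cldn5 by 1.29-fold and Eng, a co-receptor of the TGF-beta family, by 1.38-fold. Pecam1 and Esam, which encode adhesion proteins of vessel cells, and Egfl7, a secreted vessel protein, were higher by 1.2 to 1.22-fold. The transporter genes Slco1a4, Abcb1a and Slc16a1 were higher by 1.16 to 1.17-fold.

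In single libraries, Flt1 had 139 to 182 CPM in WT (median 171) and 177 to 242 in CnB1KO (median 206), with 9 of 10 CnB1KO libraries above every WT library (adjusted p = 0.00617). Cldn5 had 27.9 to 40.5 CPM in WT (median 35.2) and 39.8 to 53.6 in CnB1KO (median 42.1), with 8 of 10 above every WT library (adjusted p = 0.00846). Eng had 35.8 to 62 in WT (median 52.4) and 55.7 to 81.2 in CnB1KO (median 69.5), with 9 of 10 above (adjusted p = 0.0106). All 3 were called without any 1 library. The count of 10 fell to 4 without WT_S6 library 4, to 5 without CnB1KO_SD6 library 17 or 18, and to 6 without WT_SD6 library 7 or CnB1KO_S6 library 12 or 15. With all libraries it was 12 with DESeq2, 9 with limma voom and 7 with library totals alone. From FPKM it was 4, and 3 without a filter on FPKM.

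The 250 bases before Flt1 (chr5:147726012-147726261, minus strand) and Cldn5 (chr16:18776597-18776846, plus strand), both from RefSeq on GRCm38.p6, are shown as 2 endothelial genes with the same size of rise. Capitals mark the motifs named for Ppp3r1.
Flt1: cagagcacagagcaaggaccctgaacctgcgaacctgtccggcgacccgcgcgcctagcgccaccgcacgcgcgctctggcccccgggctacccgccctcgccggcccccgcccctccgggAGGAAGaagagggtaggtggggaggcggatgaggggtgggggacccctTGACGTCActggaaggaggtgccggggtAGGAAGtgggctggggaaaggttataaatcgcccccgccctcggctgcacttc
Cldn5: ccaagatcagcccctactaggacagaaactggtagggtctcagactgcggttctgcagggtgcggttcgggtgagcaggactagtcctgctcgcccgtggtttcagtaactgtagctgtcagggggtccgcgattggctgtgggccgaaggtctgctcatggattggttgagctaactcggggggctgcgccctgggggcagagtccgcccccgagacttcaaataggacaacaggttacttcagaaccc
Flt1 held 2 matches to AGGAAG and 1 to TGACGTCA, and Cldn5 none of the 3 motifs. AGGAAG was found in 8 of 16 endothelial promoters, in 27.1% of all tested promoters, in 30.7% of those of higher and in 23.4% of those of lower genes.

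Pericytes and smooth muscle cells, which wrap the vessels, had 3 of 14 measured markers called higher (21.4%, against 2.62% of all genes). None was called lower, and the median was 0.22. Rgs5, a regulator of G protein signalling, rose 1.17-fold, Pdgfrb, the PDGF receptor of pericytes, 1.17-fold and Vtn, which encodes vitronectin, 1.14-fold. Over libraries of a group, the score they followed most closely was not that of mural cells. Rgs5 followed that of mature oligodendrocytes (r = 0.85), Pdgfrb that of newly formed ones (0.67) and Vtn that of fibroblasts and meninges (0.81). These calls ended without several single libraries, and none of the 3 was called without WT_S6 4, WT_SD6 7 or 9, CnB1KO_S6 12 or CnB1KO_SD6 17. Without WT_S6 2 or 3, CnB1KO_S6 13 or 15, or CnB1KO_SD6 18 or 19 the count was 1, as it was with library totals alone. From FPKM it was 0 of 16 measured. Of the genes of blood (5 measured), border macrophages and leukocytes (7) and fibroblasts and meninges (13) 0 were called by edgeR, with medians of 0.26, 0.32 and 0.17. In the same order the medians were 0.17, 0.03 and -0.01 in S6 and 0.3, 0.54 and 0.21 in SD6. DESeq2 called 1 marker of border macrophages and leukocytes higher. When 1 library was left out, up to 1, 2 and 1 markers were called higher.

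Mature oligodendrocytes, which make myelin, had 6 of 25 measured markers called higher (24%, against 2.62% of all genes) and 0 lower. The log2 fold change of all 25 was above 0, with a median of 0.22. Ermn, which encodes a cytoskeletal protein of myelinating cells, had 88.2 to 122 CPM in WT (median 111) and 114 to 160 in CnB1KO (median 139), 1.25-fold higher (adjusted p = 0.0207). Ugt8a, the enzyme of galactosylceramide synthesis, rose 1.21-fold, the chaperone gene Cryab 1.18-fold, Mag, a myelin adhesion protein gene, 1.21-fold, Car2 1.19-fold and Qdpr 1.16-fold. The difference was larger after deprivation in the median of the list (0.16 in S6 and 0.27 in SD6), although no marker passed as differing between states.

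The oligodendrocyte count rested on single libraries. It was 0 without WT_S6 library 4, 1 without WT_SD6 library 7, and 2 without WT_SD6 9, CnB1KO_S6 12, 13 or 15, or CnB1KO_SD6 17, 18 or 19. It was 3 without CnB1KO_SD6 20, 10 without WT_SD6 8, 14 without CnB1KO_SD6 16 and 17 without CnB1KO_S6 14. The median of the list stayed between 0.18 and 0.25 in these fits. DESeq2 called 12 of the 25, limma voom 5, and the fit with the log2 library total 2. From FPKM 2 were called, and 0 without a filter on FPKM. Of earlier stages of the lineage, 1 of 13 markers of newly formed oligodendrocytes (Bcas1, 1.18-fold) and 1 of 15 of precursors (Sox10, the transcription factor of the lineage, 1.24-fold) were called higher. These are 7.69% and 6.67%, against 2.62% of all genes. The medians of the 2 lists were 0.03 and -0.04, and both calls ended without at least 8 single libraries.

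Astrocytes had 2 of 20 markers called higher (10%, against 2.62% of all genes) and a median of 0.12. These were the connexin gene Gjb6 (1.14-fold) and the neurotensin receptor gene Ntsr2 (1.13-fold). Microglia had 2 of 20 (10%), the complement gene C1qa (1.14-fold) and the lysosomal gene Laptm5 (1.16-fold), with all 20 above 0 and a median of 0.10. Each of these 4 calls ended without WT_S6 library 4 and without many other single libraries (adjusted p = 0.0755 to 0.107 at its highest). That of Gjb6 held without 8 of the 19 libraries, that of Ntsr2 without 5, that of C1qa without 9 and that of Laptm5 without 3. Ependymal cells (12 measured), choroid plexus (6) and Bergmann glia (7) had 0 called, with medians of 0.07, 0.22 and -0.08. The median of ependymal markers was 0.31 in S6 and -0.19 in SD6. That of choroid plexus markers was -0.33 and 0.58, ran from -0.3 to 0.28 when 1 library was left out, and was -0.2 without WT_SD6 10 and CnB1KO_SD6 18.

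**Figure D3:**
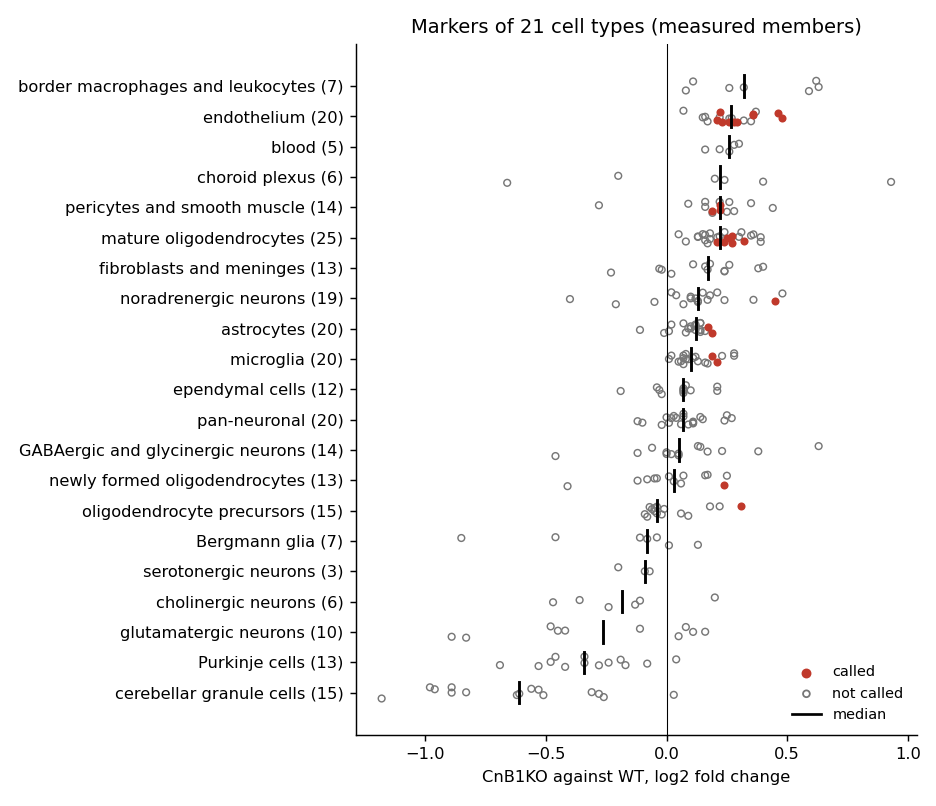
The log2 fold change of each measured marker of 21 cell types, with called markers in red, the others as open circles and the median of each list as a bar (number of measured markers in parentheses). All endothelial and mature oligodendrocyte markers and 13 of 14 mural markers lie to the right of 0, and cerebellar and glutamatergic markers spread to the left without a call.

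Of 20 pan-neuronal markers 0 were called by edgeR, with a median of 0.07. An unadjusted p under 0.05 was seen for 4 of them, and for 3473 of all 14443 genes. DESeq2 called 3 of the 20 higher and limma voom 0. The fit with the pericyte score called 5 higher, that with the log2 library total 1 lower and that with the pan-neuronal score 2 lower. Without CnB1KO_S6 14 or CnB1KO_SD6 16 the count was 3 higher, without CnB1KO_S6 11 2, and without WT_S6 1 or WT_SD6 10 1. Among 19 noradrenergic markers 1 was called higher by edgeR (5.26%, against 2.62% of all genes). This was Ret, the receptor of GDNF family factors, 1.36-fold higher (adjusted p = 0.0267). It had 81.1 to 146 CPM in WT (median 115) and 114 to 177 in CnB1KO (median 160). Over libraries of a group Ret followed the mature oligodendrocyte score most closely (r = 0.71). Its call ended without WT_S6 4, WT_SD6 7, CnB1KO_S6 15 or CnB1KO_SD6 19 (adjusted p of up to 0.0587). Th, the first enzyme of noradrenaline synthesis, had a log2 fold change of 0.13 (adjusted p = 0.594), Dbh 0.21 (0.301) and Slc6a2 0.24 (0.312). GABAergic and glycinergic (14 measured), serotonergic (3) and cholinergic (6) markers had 0 called, with medians of 0.05, -0.09 and -0.18. The serotonergic median was 0.84 in S6 and -1.18 in SD6, and ran from -0.53 to 0.42 when 1 library was left out.

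Markers of cerebellar granule cells (15 measured), Purkinje cells (13) and glutamatergic neurons (10) had medians of -0.61, -0.34 and -0.26, the lowest of the 21 lists, and 0 were called. Values above 0 were seen for 1 of the 15 granule cell, 1 of the 13 Purkinje cell and 4 of the 10 glutamatergic markers. The median of each of the 3 lists was below 0 in both sleep states. These differences were within the spread between libraries. Gabra6, for example, was 1.85-fold lower with an SE of 0.599 on the log2 scale (adjusted p = 0.366). Without CnB1KO_SD6 library 16, 2 granule cell markers were called lower, and without WT_SD6 library 8, 1 glutamatergic marker.

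The same lists were summed up per library as a score, the mean log2 CPM of the measured markers. The endothelial score was 5.02 to 5.4 in WT and 5.3 to 5.68 in CnB1KO, above every WT library in 6 of 10. That of mature oligodendrocytes was 6.31 to 6.8 and 6.54 to 7.11, above in 7 of 10, and that of astrocytes 7.4 to 7.55 and 7.43 to 7.71, above in 5 of 10. The granule cell score spread far more, over 4.56 to 7.53 in WT and 4.14 to 6.97 in CnB1KO, and the noradrenergic score over 4.95 to 6.22 in WT, with all CnB1KO libraries inside that range. Both overlapped between genotypes throughout, with 1 CnB1KO library below the WT range of the granule cell score.

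**Figure D4:**
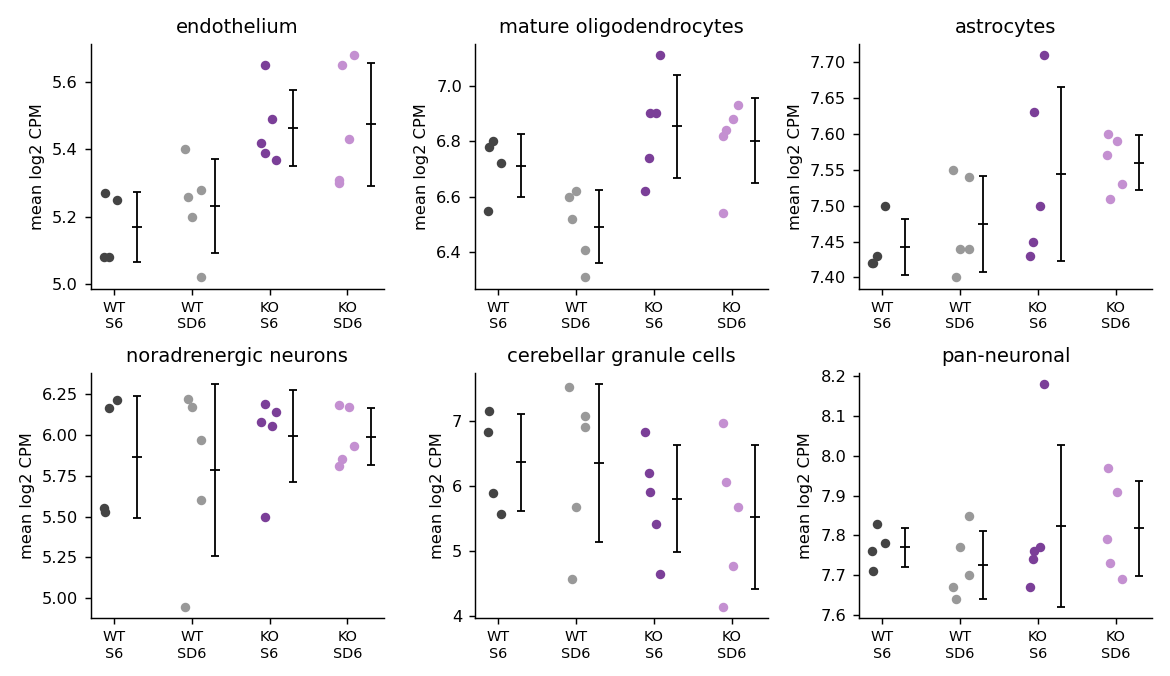
The mean log2 CPM of the markers of 6 cell types in each library by genotype and sleep state (KO is CnB1KO), with the mean and SD of each group beside its points, on axes that do not start at 0. The endothelial and oligodendrocyte scores are shifted up in CnB1KO, and the granule cell score spreads over more than 3 log2 units.

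Genes that follow a cell type between libraries of 1 group can be found without comparing genotypes. For each gene the correlation with each score was taken over the 19 libraries after the group means were subtracted, with a marker left out of its own list's score, which is a description, since libraries share depth and tissue composition with the scores. A correlation of at least 0.7 with the oligodendrocyte score was seen in 2.73% of all genes, in 96 of the 378 higher genes (25.4%) and in 0 of the 240 lower genes. For the endothelial score it was 2.85% of all genes, 52 higher genes (13.8%) and 0 lower ones. For the glutamatergic score it was 6.09% of all genes, 0 higher and 36 lower genes (15%). For the granule cell score it was 8.96% of all genes, 0 higher and 29 lower (12.1%). With the noradrenergic score, 7.04% of all genes reached it, but 3 higher and 2 lower genes.

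With any of the 21 scores 54.8% of the higher genes, 25.4% of the lower genes and 43% of all genes reached this correlation. Among named genes Flt1 followed the endothelial score (r = 0.93), Ermn that of oligodendrocytes (0.95) and Hcn2 the same (0.92). For Wdfy1, Aim2, Cdh22, Zfp78 and Snrpd3 no score reached 0.45.

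The scores were then added to the fit as covariates, which changes what is asked, since the scores contain called genes and differ between genotypes themselves. With the endothelial score 7 genes were called (0.0485%), with that of oligodendrocytes 7 (0.0485%), with that of astrocytes 52, and with that of granule cells 275 (1.9%). With the noradrenergic or pan-neuronal score the counts were 846 and 844. For the 618 genes the median log2 size in their own direction went from 0.22 to 0.15 with the endothelial and 0.14 with the oligodendrocyte score, and their standard errors grew 1.43 and 1.2 times in the median. Crb1, Wdfy1, Cdh22, Ube2f and Gm28438 were called with either of these scores. Crb1 was then at -2.43 and -2.57, Wdfy1 at 1.26 and 1.3 and Cdh22 at 0.26 and 0.21, close to the values without a score. They are named because they were still called, which favours genes that keep their size, so no conclusion is drawn from this. Flt1 reached 0.06 at its lowest over all alternatives, and Ermn 0.03. Flt1 is part of the endothelial score and Ermn of the oligodendrocyte score, so a fall with that score is built in. No contrast with the other genes is drawn from it.

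Genes of functions linked to calcineurin and to neuronal activity were taken next. Of 15 transcription factors that calcineurin is known to act on or through, 1 was higher and 2 lower (20% called, against 4.28% of all genes). Nfatc2 had 51.3 to 70.5 CPM in WT (median 60) and 62.8 to 78.3 in CnB1KO (median 70.9), 1.17-fold higher (adjusted p = 0.031). Mef2c, an activity-dependent factor, had 46.3 to 80.2 in WT (median 57.8) and 31.9 to 56.1 in CnB1KO (median 45.7), 1.3-fold lower (adjusted p = 0.0376). Crtc1, a CREB coactivator, was 1.2-fold lower (adjusted p = 0.0402). Over libraries of a group Nfatc2 followed the score of oligodendrocyte precursors (r = 0.79), Mef2c that of granule cells (0.83) and Crtc1 that of glutamatergic neurons (0.72). All 3 calls ended without WT_S6 library 4 (adjusted p = 0.0693 to 0.0948) and without at least 8 other libraries.

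The list of immediate early genes, switched on by firing, had 18 measured members, of which 2 were higher and 1 lower (16.7% called, against 4.28% of all genes), with a median of -0.05. Arc, which acts on AMPA receptor traffic at synapses, had 36.9, 37.2, 39.1 and 27.1 CPM in WT_S6 and 34.1, 29.1, 39.8, 28.6 and 35.3 in WT_SD6. It had 42.8, 51.9, 41.5, 41.6 and 53.3 in CnB1KO_S6 and 39.9, 52, 54.6, 47.2 and 40.6 in CnB1KO_SD6. All CnB1KO libraries were above all WT libraries, by as little as 39.9 against 39.8, and Arc was 1.36-fold higher (SE 0.0851 on the log2 scale, adjusted p = 0.011) and called without any 1 library. Over libraries of a group it followed the score of newly formed oligodendrocytes (r = 0.81), whose part in the result was not tested. Jun, a subunit of AP-1, rose 1.1-fold (adjusted p = 0.0269), a call that ended without WT_S6 4, WT_SD6 7, CnB1KO_S6 13 or CnB1KO_SD6 18 (up to 0.0608).

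Bdnf, which encodes a neurotrophin, was 1.24-fold lower (adjusted p = 0.0327). It had 24, 29.5, 20.5 and 27.6 CPM in WT_S6, 41.5, 36.5, 35.1, 43.1 and 35.7 in WT_SD6, 22.5, 19.7, 27.3, 24.3 and 21.7 in CnB1KO_S6 and 30.6, 28.7, 25.8, 25.8 and 29.3 in CnB1KO_SD6. The genotypes overlapped in S6 and were apart in SD6, with log2 fold changes of -0.14 and -0.45, a difference that did not pass. Its call ended without WT_S6 library 4 (adjusted p = 0.0722), and held without 9 of the 19 libraries.

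Potassium channel genes had 4 of 27 called higher (14.8%, against 2.62% of all genes), 0 lower and a median of 0. Kcnn1 and Kcnn2 encode SK channels, which calcium opens after a spike. Kcnn1 had 16.7 to 22.7 CPM in WT (median 19.6) and 19.6 to 32.8 in CnB1KO (median 28.3), above every WT library in 9 of 10 and 1.43-fold higher (adjusted p = 0.00463). Kcnn2 had 37.3 to 54.1 in WT and 43.4 to 62.7 in CnB1KO and was 1.21-fold higher (adjusted p = 0.013). Both were called without any 1 library. Kcnj10, the main potassium channel of glia, rose 1.17-fold (adjusted p = 0.0358), and the beta subunit gene Kcnab2 had a log2 fold change of 0.19 (adjusted p = 0.0484). The count of 4 was 2 without 11 single libraries, among them WT_S6 3 and 4, WT_SD6 7 and 9, CnB1KO_S6 12, 13 and 15, and CnB1KO_SD6 17, 18, 19 and 20.

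Of 27 sodium, calcium and HCN channel genes 2 were higher and 0 lower (7.41%, against 2.62% of all genes), with a median of -0.09. When 1 library was left out, 1 to 3 were higher and 0 to 2 lower. The 2 lower calls came without CnB1KO_S6 14 or CnB1KO_SD6 16. Cacna2d3, an auxiliary subunit of calcium channels, had 65.6 to 85.3 CPM in WT and 86 to 100 in CnB1KO, with no overlap (1.16-fold, adjusted p = 0.0185). Hcn2, a pacemaker channel gene, had 189 to 227 CPM in WT and 219 to 308 in CnB1KO and rose 1.19-fold (adjusted p = 0.0227, and 0.0578 without WT_S6 library 4).

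Of 19 GABA-A and glycine receptor subunits Gabra2 was called (5.26%, against 4.28% of all genes), with a median of -0.07. Of 28 glutamate receptor and scaffold genes 0 were higher and 3 lower (10.7%, against 4.28% of all genes), with a median of -0.08. Grik1 and Grik2, kainate receptor subunits, were 1.21 and 1.28-fold lower and Dlg3, which encodes the scaffold SAP102, 1.1-fold lower. Grik1 had 47.6 to 62.2 CPM in WT and 39.2 to 54 in CnB1KO (adjusted p = 0.0191). None of the 3 passed without WT_S6 library 4, and 1 passed without WT_S6 3, WT_SD6 7 or 9, CnB1KO_S6 12 or 15, or CnB1KO_SD6 17, 18, 19 or 20. Of 14 adrenergic, orexin, histamine and adenosine receptors the histamine receptor gene Hrh2 was called (7.14%), 1.2-fold higher (adjusted p = 0.032), with a median of the list of 0.08. Its call ended without WT_S6 2 or 4, WT_SD6 7 or 9, CnB1KO_S6 15 or CnB1KO_SD6 17 (adjusted p of up to 0.0739).

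Immune and glial response genes were represented by 4 calls. Of 18 interferon response genes 2 were higher, Ifi27 (1.29-fold) and the class I gene H2-K1 (1.19-fold), and 0 lower (11.1% called, against 4.28% of all genes), with a median of 0.22. The count was 0 without WT_S6 4, WT_SD6 7 or 9, CnB1KO_S6 12, 13 or 15, or CnB1KO_SD6 17 or 18. It was 1 without WT_S6 2, WT_SD6 6, or CnB1KO_SD6 19 or 20, and 0 with library totals alone. Of 9 genes of reactive glia 2 were higher (22.2%), with a median of 0.16. Osmr, the oncostatin M receptor gene, had 6.32 to 11.4 CPM in WT (median 8.37) and 9.48 to 17.5 in CnB1KO (median 12.4), 1.5-fold higher (adjusted p = 0.0189) and called without any 1 library. Spp1, which encodes osteopontin, was 1.39-fold higher with an adjusted p of 0.0499, and was called without 6 of the 19 single libraries. Ifi27 and Spp1 followed the oligodendrocyte score (r = 0.78 and 0.79) and H2-K1 that of border macrophages and leukocytes (0.85).

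In 7 other function lists 0 genes were called by edgeR with all 19 libraries. An unadjusted p under 0.05 was seen for 3473 of all 14443 genes. Under it, in the order given, were 5, 4, 4, 11, 2, 0 and 5 members of these 7 lists. They were 25 kinases and phosphatases linked to sleep need (median 0.03), 24 genes of synaptic vesicles and release (0.04), 21 of cholesterol synthesis and uptake (0.08), 38 nuclear genes of oxidative phosphorylation (0.10), 34 ribosomal protein genes (0.09), 19 endoplasmic reticulum chaperones (0.04) and 24 histone and chromatin regulators (-0.08). All 38 oxidative phosphorylation genes and 33 of 34 ribosomal protein genes had values above 0, none over 0.18. Without CnB1KO_S6 14, 3 oxidative phosphorylation genes and 1 gene of synaptic vesicles and release were called higher. Without that library or without CnB1KO_SD6 16, 2 chromatin regulators were called lower. Without WT_SD6 10, 1 chromatin regulator and 1 gene of the kinase and phosphatase list were called lower.

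Within each sleep state, as contrasts in the fit of the 4 groups over all 19 libraries, fewer genes passed. Each contrast compares fewer libraries, and the reason for the lower counts was not tested. In S6 7 genes were called (0.0485%), 3 higher and 4 lower, and in SD6 19 (0.132%), 11 higher and 8 lower. Crb1, Wdfy1, Snapc1 and Gm28438 passed in both. In S6 Aim2 (-1.27) and Meaf6 (-0.25), a subunit gene of histone acetyltransferases, were also lower, and Klf2 (0.78), a transcription factor that blood flow induces in endothelium, was higher. In SD6 Stc2 (-1.08), Cd59a (0.89), Cdh22 (0.27) and Tcirg1 (0.41), a proton pump subunit gene, were among those that passed. The genotype difference was not shown to depend on sleep state for any gene, with 0 of 14443 called for the interaction by edgeR, 0 by limma voom and 1 by DESeq2 (287 at an unadjusted p under 0.05).

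Fits of S6 and SD6 libraries on their own share no library. They called 3 genes (Crb1, Gm28438 and Wdfy1) and 4 (Crb1, Gm28438, Gabra2 and Gm15446). Across the 14443 genes, which are not independent replicates, their log2 fold changes had a Pearson r of 0.57, and 72.7% had the same sign. The endothelial list had a median of 0.28 in S6 and 0.25 in SD6, and granule cell markers -0.45 and -0.76.

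**Figure D5:**
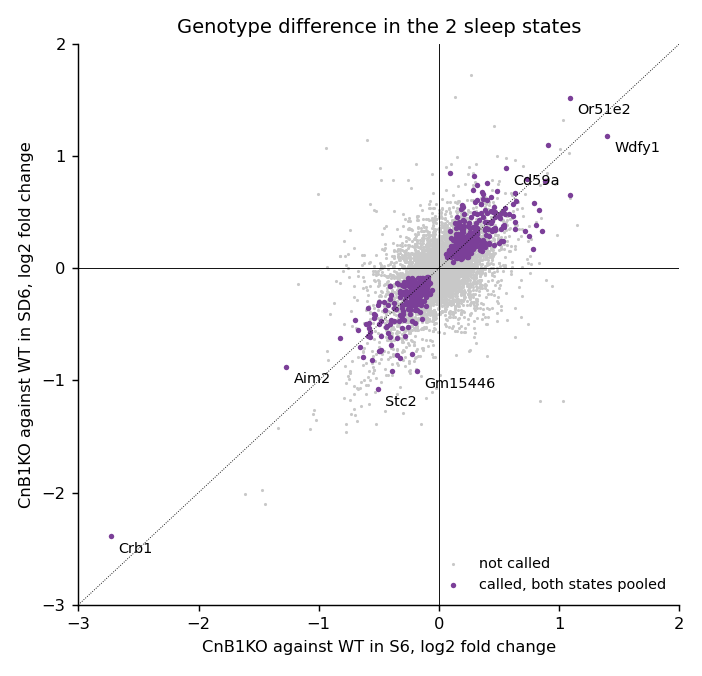
The log2 fold change of CnB1KO against WT in S6 (horizontal) and SD6 (vertical) of each gene, with genes called over both states in purple, the dotted line at equal values and 2 genes (Gm28438 and Ttr) outside the axes. Crb1 and Wdfy1 are far from 0 in both states, and most called genes form a cloud near 0 along the dotted line.

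Genes near the targeted locus were counted by distance. Within 5 Mb of Ppp3r1 2 of 24 other tested genes were called, within 10 Mb 2 of 48 and within 20 Mb 6 of 167 (3.59%, against 4.28% of all). Cnrip1, which encodes a protein that binds the cannabinoid receptor, lies 79892 bases away and had 43.6 to 50.5 CPM in WT and 40.4 to 47.7 in CnB1KO (log2 fold change -0.15, adjusted p = 0.028). Ugp2, the enzyme that makes UDP-glucose, lies 4120763 bases away and had 80.6 to 87.9 and 86.8 to 99.9 (0.14, adjusted p = 0.0223). Both calls ended without WT_S6 library 4 (adjusted p = 0.0705 and 0.0569). That of Cnrip1 held without 14 of the 19 libraries and that of Ugp2 without 18. Over the autosomes the share called ran from 2.68% on chromosome 8 to 6.01% on chromosome 4, and on the X chromosome 1 of 482 genes was higher and 15 were lower (3.32% called).

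The higher and lower genes differed in length. The median exon length was 4280 bases for higher genes, 6110 for lower genes and 4530 for all. In the shortest quartile of genes 2.81% were called higher and 0.794% lower, and in the longest quartile 1.84% and 2.7%. Among 196 transcripts annotated as to be experimentally checked (TEC) 0 were higher and 11 lower (5.61% called, against 4.28% of all genes). Over all genes 2.62% were higher and 1.66% lower. The part of transcript length in the genotype differences was not tested.

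Of the 64 named genes that were called, 26 were called without any 1 library and 38 were not, with a highest adjusted p of 0.0527 to 0.11. The 26 are Ppp3r1, Wdfy1, Cd59a, Pik3r5, Crb1, Aim2, Stc2, Fndc9, Aloxe3, Espn, Hfm1, Zfp78, Snapc1, Cdh22, Ube2f, Sh3bp5l, Snrpd3, Flt1, Cldn5, Eng, Arc, Kcnn1, Kcnn2, Cacna2d3, Gabra2 and Osmr.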

How the data were processed

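Poly(A) RNA of locus coeruleus was sequenced in 19 libraries, without strand information, so reads of overlapping genes on opposite strands cannot be told apart. The authors deposited whole-number counts per gene symbol in 1 table and FPKM in tables per group. Tools listed in the submitters' processing notes are HTSeq 2.0.4, StringTie 2.2.1, SAMtools 1.6, Trim Galore 0.6.10, FastQC 0.12.1 and Picard 2.18.29, with build GRCm38; aligner and annotation: not given in the sources used here. Every gene in the count table had at least 381 counts over all libraries. The table's columns name the group but carry library numbers that do not follow the sample titles, and those numbers are used here as names.

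After TMM scaling, edgeR 4.0.16 (R 4.3.3) was fitted to the counts (quasi-likelihood F test, genotype and sleep state as terms, 16 residual degrees of freedom). filterByExpr kept all 14443 genes. Effects within a state and the interaction came from a fit of the 4 groups. DESeq2 1.42.0, limma voom (limma 3.58.1), log2(FPKM + 0.1), other scalings and filters, covariates and the omission of each library were alternatives, 44 in all, of which 5 were added after the data were seen. The quasi-likelihood script was tested on simulated data. Labels call the samples biological replicates, give no batch, and do not name animals. The 21 marker and 18 function lists are described by counts and medians without a test of the list. Positions are from GENCODE M21 (97.6% of symbols matched) and promoters from RefSeq.

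Named genes were Ppp3r1 and its list (1 member of which is not reported here), the 10 largest rises and falls among called genes without provisional symbols, the 5 smallest p, up to 3 called members of each list and called genes within 10 Mb of Ppp3r1. Other genes, including those that complete a list, were named after their values were seen. The comparison, lists and rules were chosen with earlier results of these data known.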

Additional observations from a re-analysis of the deposited data

Results flagged for a closer look

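Within groups of 4 or 5 libraries, 28 checks (7.14% of those made) found 1 library standing apart from the rest, where chance gives about 1 in 20. In CnB1KO_S6 library 13, the shallowest, Ppp3r1 (152 CPM), Ppp3cb (242), Calm2 (176), Calm3 (330), Fkbp1a (135), Ppia (74.5) and the pan-neuronal score (8.18) were the highest of their group. In WT_SD6 library 10 Wdfy1 was the highest (88.2 CPM, others up to 47.5) and the blood score the lowest (3.25). WT_S6 library 4 had the lowest Ppp3cc (23.9), Ugt8a (118) and Hcn2 (202) and the highest Espn (20.2). WT_S6 library 2 had the highest Nfatc2 (68.8) and the lowest Mef2c (46.3), and WT_S6 library 1 the highest astrocyte score (7.5). In WT_SD6 library 8 Akap5 (28) and the cholinergic score (3.21) were the lowest, and in WT_SD6 library 9 Snrpd3 (62) was the highest. CnB1KO_S6 library 12 had the highest Cldn5 (48.9) and the lowest Fndc9 (7.05) and noradrenergic score (5.5). CnB1KO_S6 library 15 had the highest Colq (33.2), microglia score (4.52) and choroid plexus score (4.14). In CnB1KO_SD6 library 16 Cd59a (34) and the oligodendrocyte score (6.54) were the lowest, and in library 18 the choroid plexus score (6.41, others up to 3.64) was the highest. Scores are mean log2 CPM.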

How the results depend on the processing

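The 618 calls (378 higher, 240 lower) were 831 with DESeq2, 542 with limma voom, 525 with RLE size factors (280 higher, 245 lower) and 506 with library totals alone (260, 246). They were 408 (249, 159) without the sleep term, 228 (132, 96) from FPKM, 273 (153, 120) with a pseudocount of 1 and 72 (37, 35) without a filter on FPKM. S6 libraries alone gave 3 (2, 1) and SD6 libraries alone 4 (2, 2), with fewer samples. As covariates the oligodendrocyte score left 7 (3, 4), the granule cell score 275 (156, 119), the astrocyte score 52 (29, 23), the endothelial score 7 (3, 4) and the oligodendrocyte, granule cell and endothelial scores together 9 (4, 5). Without WT_SD6 10 and CnB1KO_SD6 18, 423 were called (227 higher), and without CnB1KO_S6 13 and WT_SD6 8, 589 (309, 280). The cause was not tested. Leaving out 1 library gave 123 to 1099 calls, 73 to 686 higher and 50 to 413 lower. The 7 calls within S6 were 4 with limma voom, 13 with DESeq2, 3 from S6 libraries alone and 3 to 8 without 1 library. The 19 within SD6 were 11 with library totals alone, 95 with DESeq2, 4 from SD6 libraries alone and 7 to 220 without 1 library (220 without CnB1KO_SD6 16). The interaction gave 0 calls, 1 with DESeq2 and 0 to 1 without 1 library. The named genes that were called kept their direction in every alternative except the 3 scores together. Signs changed in 47 values, 42 of them of calcineurin genes that were not called, given here as log2 fold changes. The endothelial score as covariate gave Ppp3ca 0.01, Rcan3 0.04, Cabin1 0.05 and Fkbp1a 0.06. The oligodendrocyte, granule cell and endothelial scores together gave Ppp3ca 0.05, Rcan3 0.02, Cabin1 0.06, Fkbp1a 0.03, Slc45a3 -0.04, Ugt8a -0.02, Rgs5 -0.02, Dlg3 0.0 and Spp1 -0.1. The log2 library total as covariate gave Ppp3cb -0.03, Ppp3cc 0.0 and Calm2 -0.04. The oligodendrocyte score gave Ppp3cb 0.0, Ppp3cc 0.01, Rcan2 -0.01, Cabin1 0.0, Calm2 -0.02 and Chp1 0.0. The astrocyte score gave Ppp3cb -0.05, Rcan2 -0.02, Calm2 -0.12, Calm3 -0.07, Chp1 -0.01 and Ppia -0.03. The pan-neuronal score gave Ppp3cb -0.02, Ppp3cc 0.0 and Calm2 -0.03. S6 libraries alone gave Ppp3cb -0.01 and Ppp3cc 0.16. FPKM gave Ppp3cb -0.03. FPKM with a pseudocount of 1 gave Ppp3cb -0.03. Unfiltered FPKM gave Ppp3cb -0.03. The average of the 4-group contrasts gave Ppp3cc 0.0. The pericyte score gave Fkbp1a 0.04. Without CnB1KO_S6 13 and WT_SD6 8 it was Ppp3cb 0.0. Without CnB1KO_S6 13 it was Ppp3cb -0.01. Without WT_SD6 10 and CnB1KO_SD6 18 it was Ppp3cc 0.02. Without WT_SD6 8 it was Ppp3cc 0.0. Without WT_SD6 9 it was Ppp3cc 0.01. Without WT_SD6 10 it was Ppp3cc 0.02. Without CnB1KO_SD6 16 it was Ppp3cc 0.02. Without CnB1KO_SD6 20 it was Ppp3cc 0.0. Without CnB1KO_S6 14 it was Fkbp1a 0.0. No paired analysis was possible because the columns of the count table carry no replicate number that the groups share. Of genes in the lowest quartile of level 2.46% were called, and the part of depth in this was not tested.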
